A study of Mus musculus with 22 samples.

Results

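The genes described here are 44 members of a list of NF-kB pathway genes, cytokines, chemokines and adhesion molecules, in the intestine of mice with and without intestinal SIRT1. Membership in the list does not show that NF-kB controls a gene. They were chosen by name: a member was a probe whose gene name in the scanner files equalled one of the 44 symbols, and the probe with the highest mean level stood for the gene where the array held several. The array named 43 of the 44, out of 27962 gene names in all, and Il33 was not matched. The matched members included 5 NF-kB subunits (Nfkb1, Nfkb2, Rel, Rela, Relb) and 5 genes grouped here as inhibitors (Nfkbia, Nfkbib, Nfkbie, Nfkbiz, Tnfaip3). Nfkbiz, which encodes an atypical nuclear protein of the I-kappa-B family, is counted in that group throughout. Another 5 genes belong to TNF signalling (Tnfaip2, Birc2, Birc3, Traf1, Traf2). The rest were 11 cytokines, 3 adhesion and prostaglandin genes (Icam1, Vcam1, Ptgs2), 8 CC chemokines and 6 CXC chemokines.

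Total RNA from the ileum and colon of male C57BL/6 mice on chow was measured on 22 one-colour Agilent arrays with 500 ng of RNA as input. Young mice were 6 to 8 weeks old and aged mice 24 months old. Control mice are called Flox and SIRT1 mutants iKO; the labels neither expand the abbreviation nor say which part of Sirt1 was removed, and in mice published under this name a villin-Cre transgene deletes the floxed gene in intestinal epithelium. There were 8 arrays of young ileum, 4 for each genotype; the aged mice gave 3 Flox and 4 iKO arrays of ileum and again 3 and 4 of colon. Nothing in the labels says that replicates were separate mice or that ileum and colon were matched, so the p-values measure the spread between these arrays, and the comparisons with age hold ileum only.

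NF-kB is a family of dimeric transcription factors held in the cytoplasm by inhibitor proteins of the I-kappa-B family. Signals from TNF receptors, interleukin receptors and Toll-like receptors activate the IKK kinases, the inhibitors are degraded, and the freed dimers induce cytokines, chemokines, adhesion molecules and several of their own inhibitors. SIRT1 is a deacetylase that is known to remove acetyl groups from the subunit encoded by Rela. In the gut, epithelial chemokines such as Ccl25 and Ccl20 recruit lymphocytes, and stromal Cxcl12 and Cxcl13 organise them.

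NF-kB dimers bind a short motif called a kB site, and the promoters below show which members carry its letters just before their start site. The sequences are RefSeq promoters of build GRCm38.p6, the 110 bases before the transcription start, written 5′ to 3′ on the gene's strand. Capitals mark matches on either strand to a kB motif of 3 G bases, any 3 bases and TTCC, overlapping matches included. The first pair encode a subunit and the classical inhibitor, at chr19:46304627-46304736 (plus strand) and chr12:55492648-55492757 (minus strand).
Nfkb2: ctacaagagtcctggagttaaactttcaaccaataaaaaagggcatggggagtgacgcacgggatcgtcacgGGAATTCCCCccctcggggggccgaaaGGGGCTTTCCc
Nfkbia: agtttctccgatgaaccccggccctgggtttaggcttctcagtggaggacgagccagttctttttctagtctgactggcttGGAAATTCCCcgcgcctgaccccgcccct
The next sequences belong to Nfkbie (chr17:45555590-45555699), Ltb (chr17:35194397-35194506), Ccl20 (chr1:83116656-83116765) and Il1rn (chr2:24345261-24345370, one of 3 listed starts), all on the plus strand, and are shown because the values of these members are described below.
Nfkbie: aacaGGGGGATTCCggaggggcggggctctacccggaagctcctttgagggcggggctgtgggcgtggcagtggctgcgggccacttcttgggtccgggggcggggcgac
Ltb: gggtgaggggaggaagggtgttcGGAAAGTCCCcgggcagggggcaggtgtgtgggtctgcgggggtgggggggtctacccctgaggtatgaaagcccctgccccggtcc
Ccl20: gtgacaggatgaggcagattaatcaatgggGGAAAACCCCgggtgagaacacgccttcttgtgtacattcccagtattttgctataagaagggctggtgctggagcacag
Il1rn: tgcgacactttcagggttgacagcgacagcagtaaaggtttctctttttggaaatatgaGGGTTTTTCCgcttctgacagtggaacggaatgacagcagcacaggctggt
The neighbouring neutrophil chemokine genes Cxcl1 (chr5:90891135-90891244) and Cxcl2 (chr5:90903789-90903898), both on the plus strand, each hold 3 matches.
Cxcl1: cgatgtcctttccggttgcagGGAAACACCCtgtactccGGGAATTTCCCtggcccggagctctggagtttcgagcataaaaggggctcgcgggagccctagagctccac
Cxcl2: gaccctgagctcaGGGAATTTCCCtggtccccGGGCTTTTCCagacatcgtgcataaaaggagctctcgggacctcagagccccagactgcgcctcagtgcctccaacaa
Tnf (chr17:35202008-35202117, minus strand) and Cxcl12 (chr6:117168425-117168534, plus strand), the members that passed the test with age, hold no match in this window.
Tnf: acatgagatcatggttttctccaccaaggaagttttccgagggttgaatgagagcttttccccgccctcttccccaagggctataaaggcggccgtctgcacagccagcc
Cxcl12: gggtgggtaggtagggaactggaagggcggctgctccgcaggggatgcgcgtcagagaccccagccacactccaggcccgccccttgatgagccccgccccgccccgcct

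Over 250 bases before the start, 11 of the 32 members with a promoter entry held the kB letters, 34.4%, against 5.31% of 27025 genes. Those members were Rel, Nfkb2, Nfkbia, Nfkbie, Tnfaip3, Ltb, Il1rn, Il6, Ccl20, Cxcl1 and Cxcl2. The letters TGANTCA, an AP-1 motif searched on both strands, lay in 6 of the 32 promoters, 18.8%, against 7.82% of genes. The letters TATAA, searched on the gene's strand only, lay in 13, or 40.6%, against 18.4% of genes. A match describes the letters and does not show that a factor was bound.

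Levels are log2 signal minus the array's 75th percentile, so a difference of 1 is a 2-fold change, and errors are SD over arrays for levels and SE for differences. A probe was well above background where the scanner software flagged it so. On ileum arrays 49.8% to 61.5% of spots carried that flag and on colon arrays 70.4% to 79.7%. Sirt1 itself was 0.92 ± 0.24 (n = 4) in young Flox and 0.70 ± 0.04 (n = 4) in young iKO ileum, 0.82 ± 0.25 (n = 3) and 0.32 ± 0.04 (n = 4) in aged ileum, and 0.78 ± 0.02 (n = 3) and 0.50 ± 0.15 (n = 4) in colon. Each iKO mean was below its Flox mean, but no Sirt1 difference passed the test (limma, adjusted p = 0.999, 0.177 and 0.623), and which exons its probe covers relative to the deletion is not given in the sources used here. The tissue labels held against the ileal bile acid genes Fabp6 and Slc10a2, which were lower in colon, and Hoxb13, a gene of the distal gut, which was higher there.

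Of the 15 ileum arrays, 5 stood apart by cell markers. Aged Flox array 1 and aged iKO array 2 had Car1 at 8.18 and 7.79 and Aqp8 at 6.55 and 5.57, within or near the colon ranges of 8.17 to 8.74 and 6.27 to 8.09, although Hoxb13 was at -6.37 and -6.11 against 2.12 to 4.06 in colon. Hoxd13 was at -6.30 and -1.30 on these arrays, against -1.87 to 1.55 in colon, so the aged iKO array lay within the colon range. Car1 was also at 2.63 on young Flox array 2 and at 1.26 on young iKO array 2, where Aqp8 was at -4.62 and -4.54. Young iKO array 4 and aged iKO arrays 1 and 4 had the highest B cell markers: Ms4a1, which encodes the B cell surface protein CD20, was 3.58, 1.98 and 2.03 there and at most -0.75 on the other ileum arrays. Calls of members that end without either set are given below with their values.

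Of the 43 matched members, 31 were well above background on all 22 arrays, 31 on all 15 ileum arrays and 36 on all 7 colon arrays, and none was saturated. Rel was detected on 3 of 22 arrays, Il6 on 2, Il1a on 1 and Cxcl2 on 2, Cxcl5 on 6, Cxcl1 on 7, Ptgs2 on 8, Ccl3 on 10 and Lta on 11. Tnf was detected on 21 arrays, among them 3 of the 4 young Flox arrays. Il10, the anti-inflammatory interleukin, and Tslp, an epithelial cytokine, were detected on 7 arrays, all of them colon. A gene was tested if all arrays of some group in the fit had it well above background, which left 32 members in the ileum fit and 37 in the colon and in the aged ileum and colon fits. The additional 5 in the latter were Cxcl1, Il10, Lta, Ptgs2 and Tslp. Rel, Il1a, Il6, Ccl3, Cxcl2 and Cxcl5 were tested nowhere, and their low levels are given as not well above background.

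The first question was whether loss of SIRT1 changed these genes in the young ileum. None of the 32 tested members passed the threshold of adjusted p below 0.05 (limma over all 15588 genes), against 0.0449% of all genes called (0.0385% higher, 0.00642% lower). At an unadjusted p below 0.05 there were 3 members, against 4.12% of all genes. The fitted difference was above 0 for 29 of 32, or 90.6%, with a median of 0.24, where 48.2% of all genes were above 0 and their median was -0.01; the members' values come from the same 8 arrays and are not separate measurements of the condition. The members' median fell to 0.10 without young iKO array 1, to 0.15 without young Flox array 3 and to 0.17 without the 3 arrays with high B cell markers. Of the T cell markers 7 of 8 tested were above 0 (median 0.41) and of the B and plasma cell markers 5 of 5 (median 1.01); none passed, and their part in the members' values was not tested. Il1rn, which encodes the interleukin-1 receptor antagonist, was at -3.04, -1.60, -3.01 and -2.98 in Flox and at -1.56, -0.57, -2.05 and -1.29 in iKO. The 3 low Flox arrays lay below every iKO array, and Flox array 2 overlapped with them. The difference was 1.29 ± 0.44, a 2.45-fold higher mean in iKO (adjusted p = 0.999), and it was above 0 on all 4 slides that held both genotypes, from 0.04 to 2.47.

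Ccl20, the chemokine that attracts CCR6-bearing lymphocytes and dendritic cells, was at -2.54, -2.46, -3.43 and -2.39 in young Flox and at -2.02, -2.30, -2.35 and -0.78 in young iKO. It was the only member whose ranges did not overlap here, against 2.18% of all genes (0.975% higher, 1.21% lower), and iKO array 4, with high B cell markers, was the highest. Its difference of 0.84 ± 0.45 did not pass (adjusted p = 0.999). Birc3 and Birc2, which encode ubiquitin ligases of the TNF receptor complex, were 0.29 ± 0.13 and 0.20 ± 0.09 above Flox, and Nfkbia, the inhibitor that NF-kB itself induces, was 0.34 ± 0.21 above, all with adjusted p = 0.999. By role, the fitted difference was above 0 for 3 of 4 subunits, 4 of 5 inhibitors, 5 of 5 TNF signalling genes, 6 of 6 cytokines, 7 of 7 CC chemokines and 2 of 3 CXC chemokines. The members below 0 were Cxcl12, Rela and Nfkbib, at -0.16, -0.05 and -0.10.

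In the aged ileum none of 32 members passed the test either, against 0.167% of all genes called (0.115% higher, 0.0513% lower), and 4 had an unadjusted p below 0.05, against 11.9% of all genes. The difference was above 0 for 22 of 32 members, 68.8%, against 53.4% of all genes, with a median of 0.22 against 0.02. That median was 0.14 without aged iKO array 1, 0.37 without aged iKO array 2 and 0.03 without the arrays with high B cell markers. T cell markers were higher in iKO for 8 of 8 tested (median 0.51) and B and plasma cell markers for 4 of 5 (median 0.84), none passing, and their part was not tested. Cxcl12, a chemokine of stromal cells that retains CXCR4-bearing cells, was at 0.67, 0.26 and 0.22 in aged Flox and at -0.51, -0.22, -0.16 and -0.14 in aged iKO. The groups did not overlap, which was so for 14.1% of all genes (8.35% higher, 5.78% lower), and every iKO array lay below 0. The difference was -0.64 ± 0.17, 1.56-fold lower in iKO (adjusted p = 0.179). The mean of 6 fibroblast markers was 2.67 ± 0.22 (SD, n = 3) in aged Flox and 2.22 ± 0.30 (SD, n = 4) in aged iKO; all 6 were lower in iKO and none passed. Their part in the Cxcl12 value was not tested, and in tissue RNA fewer cells of a type and less RNA per cell cannot be told apart.

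Ccl4, a chemokine of activated T cells and macrophages, was at -2.48, -3.37 and -2.06 in aged Flox and at -0.98, -1.66, -1.43 and -1.49 in aged iKO, with no overlap. The difference was 1.25 ± 0.49 (adjusted p = 0.347). Tnf, the cytokine that starts the canonical pathway through its receptors, was at -1.81, -3.01 and -3.66 in aged Flox and at -1.35, -1.85, -1.63 and -1.92 in aged iKO. Flox array 1 lay within the iKO range, and the difference of 1.14 ± 0.47 did not pass (adjusted p = 0.368). Il1rn was at -0.69, -2.28 and -1.70 in aged Flox and at -1.31, 0.24, -0.57 and -0.43 in aged iKO, a difference of 1.04 ± 0.48 (adjusted p = 0.415). The highest Il1rn value of each genotype came from the array with high colon markers, aged Flox array 1 and aged iKO array 2.

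Nfkbiz, which encodes an atypical nuclear protein of the I-kappa-B family induced in epithelium, was at 1.88, 0.92 and 1.22 in aged Flox and at 2.11, 1.91, 2.32 and 1.94 in aged iKO, which did not overlap. Its difference was 0.74 ± 0.37 (adjusted p = 0.456). All 4 tested subunits had lower means in aged iKO, and none passed: the differences ran from -0.24 for Relb to -0.02 for Nfkb1. All 5 inhibitors, all 5 TNF signalling genes and 5 of 6 cytokines had higher means, as did 4 of 7 CC and 1 of 3 CXC chemokines, and none passed. Slide 2, the only slide with both genotypes of aged ileum, gave the same direction for Cxcl12 (-0.48), Ccl4 (1.71), Tnf (1.16), Il1rn (2.52) and Nfkbiz (0.99). It held 1 array of each genotype, and its iKO array was array 2, which has high colon markers. Among inhibitors and TNF signalling genes, Nfkbia (-0.41), Tnfaip3 (-0.30), Nfkbie (-0.05), Birc3 (-0.03) and Traf2 (-0.01) were below 0 on this slide. Nfkbib, Nfkbiz, Tnfaip2, Birc2 and Traf1 were above 0.

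In the aged colon none of 37 members passed, against 0.111% of all genes called (0.0911% higher, 0.0202% lower), and 1 had an unadjusted p below 0.05, against 7.21% of all genes. The difference was above 0 for 19 of 37, 51.4%, against 47.3% of all genes, with a median of 0.01 against -0.01. That member was Tslp, at -4.86, -4.99 and -5.02 in Flox and at -5.73, -5.00, -5.83 and -5.50 in iKO. iKO array 2 fell inside the Flox range, and the difference was -0.56 ± 0.20 (adjusted p = 0.582). Nfkb1, which encodes the precursor of a DNA-binding subunit, was at -0.04, -0.35 and -0.35 in Flox and at -0.64, -0.58, -0.46 and -0.41 in iKO. It was the only member without overlap, against 8.26% of all genes (4.41% higher, 3.84% lower), with a difference of -0.28 ± 0.12 (adjusted p = 0.708), but 2 of its other probes differed by 0.050 and 0.10 the other way.

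Tnf in colon was at -4.01, -3.08 and -3.34 in Flox and at -1.79, -3.34, -2.91 and -2.80 in iKO. iKO array 2 lay within the Flox range and the other 3 above it, and the difference of 0.77 ± 0.39 did not pass (adjusted p = 0.779). Cxcl16 and Nfkbiz differed by 0.30 ± 0.15 and 0.49 ± 0.26 (adjusted p = 0.79 and 0.792). In the colon and the young ileum Flox and iKO arrays sat at different positions of each slide, so position and genotype cannot be told apart there.

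**Figure D1:**
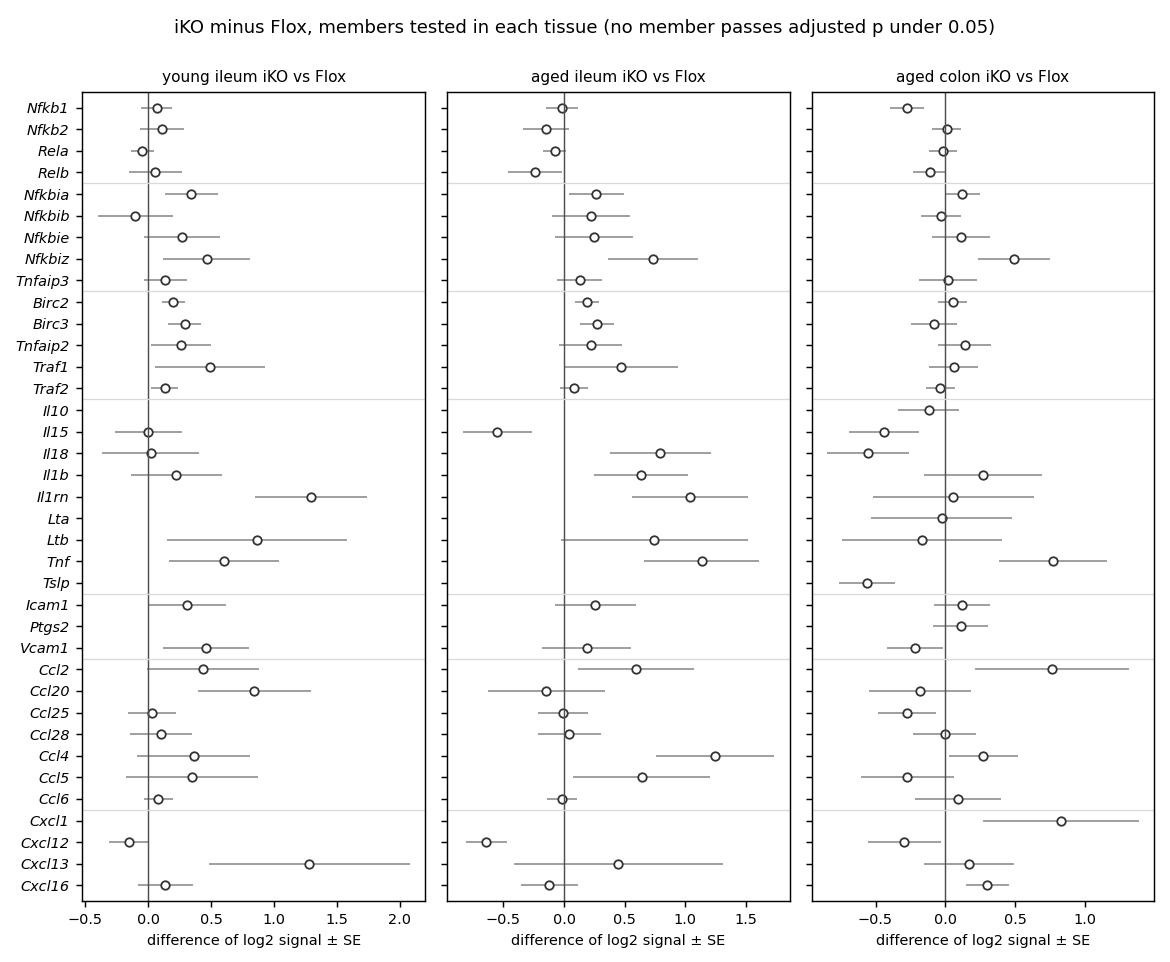
Differences between iKO and Flox (log2) with SE for the tested members in young ileum, aged ileum and aged colon. Most points lie right of 0 in young ileum (29 of 32), and no member passes the adjusted threshold in any of the 3 comparisons.

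Whether the genotype difference itself changed with age or with tissue was tested by interaction terms, and no member passed. No gene at all was called for the interaction with age (0%; unadjusted p below 0.05 for 2.53% of genes), and none of the 32 members reached an unadjusted p below 0.05. The term was above 0 for 8 members, 25%, against 53.6% of genes. Cxcl12 had the smallest p, with the iKO difference 0.49 lower in aged than in young ileum (SE 0.23, adjusted p = 1). For Ccl20 the term was -0.99 ± 0.66, for Il15 -0.55 ± 0.39, for Il18 0.77 ± 0.57 and for Ccl4 0.89 ± 0.66, all with adjusted p = 1. For the interaction with tissue 0.0353% of all genes were called and 0 of 37 members, with 3 members at an unadjusted p below 0.05 against 5.98% of genes. These were Il18 (-1.35 ± 0.47, adjusted p = 0.76), Ccl4 (-0.98 ± 0.43, adjusted p = 0.82) and Il10, for which no value is given because it was not well above background on any ileum array. Birc3 and Nfkb1 followed at -0.36 ± 0.20 and -0.26 ± 0.16 (adjusted p = 0.822 and 0.832).

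Age was compared within each genotype in the ileum, and Cxcl12 was higher in aged than in young mice of both. The arrays are those of the ileal genotype comparisons. In Flox, 1 of 32 members was called, 3.12%, against 8.55% of all genes, and it was higher (3.19% of genes were called higher and 5.36% lower). At an unadjusted p below 0.05 there were 7 members, against 26.5% of genes, and 23 differences, 71.9%, were above 0, against 46.9% of genes. In iKO, 2 of 32 were called, 6.25%, against 10.7% of all genes (5.15% higher, 5.57% lower), and both were higher. There 5 members had an unadjusted p below 0.05, against 27.7% of genes, and 19 differences, 59.4%, were above 0, against 47.9%. Cxcl12 was at -0.75, -0.86, -0.62 and -0.49 in young Flox ileum, against 0.67, 0.26 and 0.22 in aged Flox. All 3 aged arrays lay above all 4 young ones. The rise was 1.06 ± 0.17, or 2.09-fold (adjusted p = 0.00343), and on the 2 slides with both ages it was 1.06 and 1.12.

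In iKO ileum Cxcl12 was at -1.10, -1.10, -0.48 and -0.66 in young mice and at -0.51, -0.22, -0.16 and -0.14 in aged mice. The aged array 1 fell within the young range. The rise was 0.58 ± 0.16, 1.49-fold (adjusted p = 0.036), and it was positive on all 3 slides with both ages, from 0.15 to 0.94. Its second brightest probe gave 0.62 ± 0.27 in Flox (adjusted p = 0.157) and 0.17 ± 0.25 in iKO (adjusted p = 0.705), so neither call was made on that probe alone. With the mean over probes Cxcl12 was still called in Flox, while the iKO call was lost (0.37, limma, adjusted p = 0.236). The iKO call was lost without young iKO array 1 or 2 (adjusted p = 0.0728 and 0.0891) or aged iKO array 2, 3 or 4 (0.0699, 0.0941 and 0.0857), with slide as a fixed factor (0.0532), without the 2 arrays with high colon markers (0.0652) and without the 3 with high B cell markers (0.127).

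Tnf rose with age in iKO ileum. It was at -2.84, -3.66, -3.66 and -2.70 in young iKO and at -1.35, -1.85, -1.63 and -1.92 in aged iKO. The groups did not overlap, which was so in this direction for 8.24% of all genes. The rise was 1.53 ± 0.44, 2.89-fold (adjusted p = 0.0425), and it was positive on 3 of 3 slides, from 0.99 to 2.03. In Flox the same probe was at -3.56, -2.74, -4.78 and -4.21 in young mice and at -1.81, -3.01 and -3.66 in aged mice, groups that overlapped, and the slide values ran from -0.27 to 2.04. It was well above background on only 3 of the 4 young Flox arrays. The iKO call was lost without young Flox array 1 or 4 or aged Flox array 3 (adjusted p = 0.0546, 0.0529 and 0.0517), young iKO array 2 or 3 (0.0963 and 0.123) or any single aged iKO array (0.0669 to 0.109), with slide as a fixed factor (0.0722) and without the 3 arrays with high B cell markers (0.19). The difference between the genotypes in this age effect was not called.

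**Figure D2:**
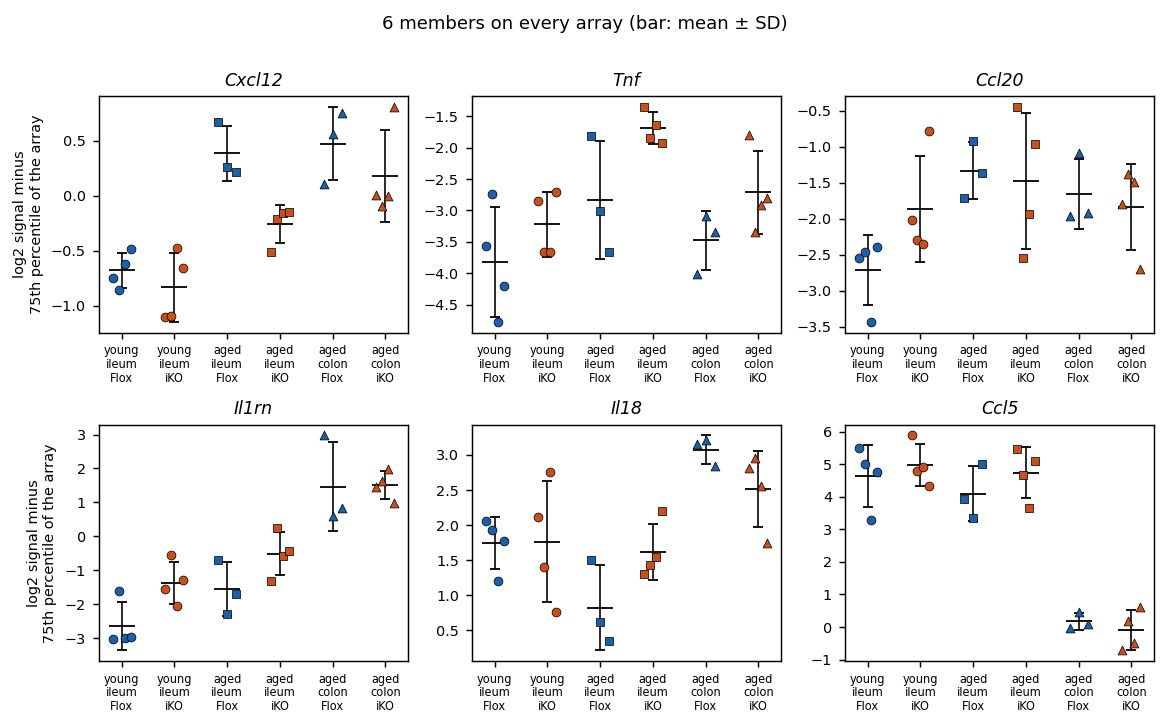
Levels (log2 signal minus the 75th percentile of the array) of Cxcl12, Tnf, Ccl20, Il1rn, Il18 and Ccl5 on all 22 arrays in the 6 groups, with group mean and SD. Aged Flox ileum lies above young Flox ileum for Cxcl12 on all 3 aged arrays, and colon lies far below ileum for Ccl5.

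The other members with small p did not pass with age on their brightest probe. In Flox these were Ccl20 (1.38 ± 0.49, adjusted p = 0.0927), Ccl25 (-0.55 ± 0.21, adjusted p = 0.112), the endothelial adhesion molecule Vcam1 (0.91 ± 0.37, adjusted p = 0.137) and Tnfaip2, a TNF-induced gene (0.60 ± 0.26, adjusted p = 0.161). Ccl20 was at -1.70, -0.92 and -1.37 in aged Flox, all above the 4 young arrays. Ranges did not overlap for 6 of 32 members, 18.8%, all higher in aged Flox (Ccl20, Cxcl12, Cxcl13, Icam1, Nfkbie, Vcam1), against 24.6% of all genes, 9.23% higher and 15.4% lower. In iKO the next were Ccl25 (-0.58 ± 0.19, adjusted p = 0.0667), which encodes the small intestinal chemokine for CCR9-bearing lymphocytes, Ccl6 (-0.28 ± 0.12, adjusted p = 0.143) and Tnfaip2 (0.56 ± 0.24, adjusted p = 0.15). Ccl25 was at 7.86, 7.63, 8.00 and 7.72 in young iKO and at 7.56, 6.90, 7.16 and 7.25 in aged iKO, and no aged array reached the young range. Nfkb1 was not called with age on its brightest probe, but another of its probes passed in both genotypes. That probe rose by 0.61 ± 0.14 in Flox and 0.50 ± 0.13 in iKO (limma, adjusted p = 0.0186 and 0.0256). The remaining Nfkb1 probes rose by 0.43 and 0.43 in Flox and by 0.39 and 0.23 in iKO and did not pass.

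Cell markers moved with age beside these genes. The mean of 6 endothelial markers was -2.42 ± 0.22 (SD, n = 4) in young and -1.80 ± 0.18 (SD, n = 3) in aged Flox, with 2 of 6 called higher, and -2.61 ± 0.34 and -2.0 ± 0.23 (SD, n = 4 each) in iKO, with 1 of 6 higher. Of 9 macrophage markers 2 were higher in aged Flox and 3 in aged iKO, and none lower. Fibroblast markers were 2.77 ± 0.29 in young and 2.67 ± 0.22 in aged Flox; in iKO they were 2.76 ± 0.30 and 2.22 ± 0.30, with 2 of 6 lower, while Cxcl12 was higher. The part of these cell types in the values of Cxcl12 and Tnf was not tested. Age and array position coincide in the ileum and cannot be told apart.

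Among 71 tested genes of 5 other pathway lists, 7 were called with age in each genotype, 9.86%, close to the 8.55% and 10.7% of all genes. Of 24 IKK components, adaptors and kinases 1 rose and 1 fell in each genotype: Irak3, an inhibitory kinase of Toll-like receptor signalling, rose by 0.95 ± 0.20 in Flox (adjusted p = 0.0141) and by 0.91 ± 0.18 in iKO (adjusted p = 0.0103), while Tab3 fell by 0.29 in Flox and Chuk, an IKK kinase subunit gene, fell by 0.36 in iKO. Tlr6, a receptor for bacterial lipopeptides, was the 1 of 10 innate sensors called, 0.85 ± 0.24 higher in Flox and 1.34 ± 0.22 in iKO (adjusted p = 0.0425 and 0.00312). Of 11 chemokine receptors only Ackr1, an atypical chemokine receptor of venules, was called, 1.35 ± 0.24 and 1.10 ± 0.22 higher (adjusted p = 0.00602 and 0.00994). Of 16 cytokine receptors, Il7r rose in both genotypes (1.38 ± 0.31 and 1.33 ± 0.29), Il18r1 rose in iKO (0.93 ± 0.20) and Ltbr, the lymphotoxin beta receptor gene, fell in Flox by 0.61 ± 0.16. Of 10 further inhibitors Tax1bp1 fell by 0.36 in Flox and Tnip2 rose by 0.40 in iKO.

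Aged colon was then compared with aged ileum within each genotype. The comparison shares its ileum and colon arrays with those above. Slide, scan day and tissue coincide and cannot be told apart. In Flox, 15 of 37 members were called, 40.5%, against 32.9% of all genes; 3 were higher in colon and 12 lower, 8.11% and 32.4%, where 19.2% of all genes were called higher and 13.7% lower. The 3 include Tslp, which was tested only through its signal in colon, and the 12 include Nfkb1, whose probes disagree. In iKO, 18 of 37 were called, 48.6%, against 43.6% of all genes, 2 higher and 16 lower, 5.41% and 43.2%, where 24.3% of genes were higher and 19.3% lower. The 16 again include Nfkb1. Without the 3 ileum arrays with high B cell markers, 13 were called in iKO, 1 higher and 12 lower: Il18, Il1rn, Nfkbie, Birc2, Traf2 and Nfkb2 were lost and Traf1 was added. The median difference of the members was -0.22 in Flox and -0.56 in iKO, and that of all genes 0.08 and 0.07; the iKO median was -0.34 without aged ileum iKO array 1 and -0.28 without the 3 arrays. The difference was above 0 for 13 members in Flox and 10 in iKO, 35.1% and 27%, against 56.9% and 55.5% of genes. Ranges did not overlap for 45.5% of all genes in Flox (27.4% higher, 18% lower) and 43.1% in iKO (23.4% higher, 19.7% lower). Of the members 3 lay higher and 15 lower in Flox colon, 8.11% and 40.5%. In iKO 2 lay higher and 14 lower, 5.41% and 37.8%. These include Tslp in Flox and Il10 in iKO, neither well above background on an ileum array. With normexp background correction the share of called genes that were higher moved from 58.3% to 43.7% in Flox and from 55.7% to 42.9% in iKO, the medians of all genes moved to -0.05 and -0.07, and of the members 16 (2 higher, 14 lower) and 20 (2 higher, 18 lower) were called. With no filter on dim probes that share was 34.3% in Flox and 34.7% in iKO. The medians of all genes were then -0.12 and -0.15, and those of the members -0.41 and -0.67. Of 43 members 16 (3 higher, 13 lower) and 21 (2 higher, 19 lower) were called.

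Ccl25 had the lowest adjusted p of the members. It was at 6.70, 7.54 and 7.44 in aged Flox ileum and at 0.53, 1.27 and 0.76 in Flox colon. No colon array came near an ileum array. The fall was 83.2-fold, -6.38 ± 0.25 (adjusted p = 1.68e-08), and in iKO, where ileum was at 7.56, 6.90, 7.16 and 7.25 and colon at 0.67, 0.29, 0.53 and 0.81, it was 99.9-fold, -6.64 ± 0.22 (adjusted p = 2.04e-09). Its second probe gave -6.49 and -6.92, whereas another, well above background on 13 arrays, gave 0.33 and 0.54 (adjusted p = 0.371 and 0.0777). Ccr9, the gene of its receptor, was lower in colon as well, by -2.47 ± 0.33 in Flox and -2.49 ± 0.29 in iKO (adjusted p = 0.000232 and 3.97e-05).

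Ccl5, a chemokine of cytotoxic lymphocytes, was at 3.93, 3.33 and 5.0 in Flox ileum and at -0.03, 0.47 and 0.08 in Flox colon. In iKO it was at 5.48, 4.67, 3.66 and 5.11 in ileum and at -0.71, 0.18, -0.49 and 0.62 in colon. The tissues did not overlap in either genotype, and the falls were 15.1-fold (-3.92 ± 0.51, adjusted p = 0.00018) and 28.4-fold (-4.83 ± 0.44, adjusted p = 6.92e-06). Ccl4 fell from -2.48, -3.37 and -2.06 to -4.68, -4.51 and -4.30 in Flox, 3.63-fold (-1.86 ± 0.33, adjusted p = 0.00124), and 7.15-fold in iKO (-2.84 ± 0.28, adjusted p = 1.33e-05). Cxcl16, the ligand of CXCR6 on intraepithelial lymphocytes, was 3.23-fold lower in Flox (-1.69 ± 0.26, adjusted p = 0.00053) and 2.41-fold lower in iKO (-1.27 ± 0.22, adjusted p = 0.000764). Its receptor gene Cxcr6 was lower by -2.01 ± 0.25 and -2.75 ± 0.22 (adjusted p = 0.000133 and 2.36e-06).

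**Figure D3:**
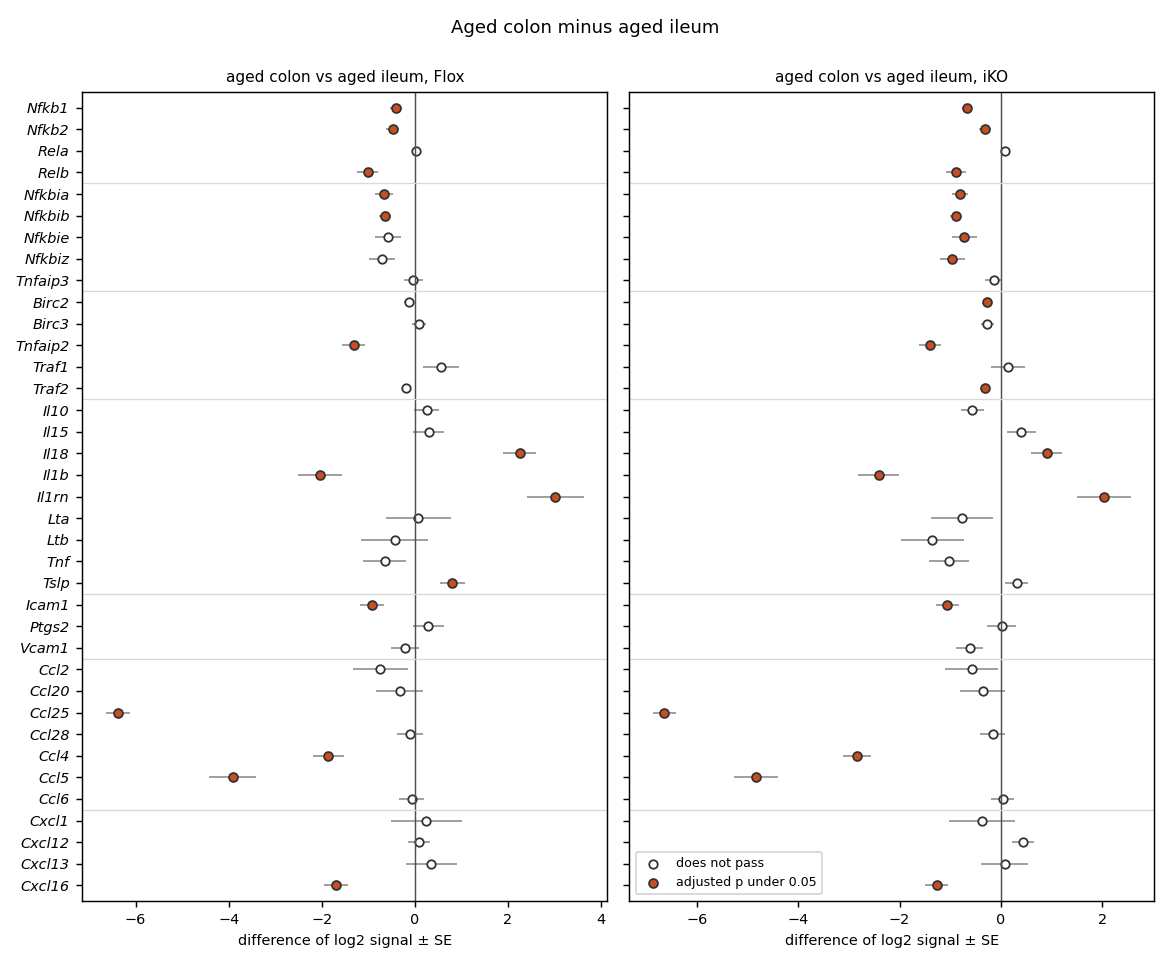
Differences between aged colon and aged ileum (log2) with SE for the tested members in Flox and iKO mice. Ccl25 (-6.38 and -6.64) and Ccl5 (-3.92 and -4.83) lie farthest below 0, and Il1rn (3.02 and 2.04) and Il18 (2.25 and 0.90) above it.

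Most T cell markers moved with these chemokines. Of 9 markers 6 were lower in colon in each genotype, with medians of -1.18 and -1.81, and 1 was higher in Flox colon. The markers Cd3g and Cd8a differed by -2.67 ± 0.41 and -3.05 ± 0.60 in Flox and by -3.32 ± 0.35 and -4.33 ± 0.52 in iKO. Of 9 macrophage markers 7 were lower in each genotype, with medians of -1.08 and -0.93, and 1 was higher in iKO colon. Epithelial markers were lower for 4 of 7 in Flox and 5 of 7 in iKO, and smooth muscle markers higher for 2 of 6 and 6 of 6. The part of the make-up of the tissue in the members' values was not tested.

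The cytokines split by direction. Il1b, the pro-inflammatory interleukin that the receptor antagonist opposes, was at -2.24, -2.49 and -1.99 in Flox ileum and at -4.68, -4.30 and -3.85 in Flox colon. It fell 4.12-fold (-2.04 ± 0.46, adjusted p = 0.0058), and 5.32-fold in iKO (-2.41 ± 0.40, adjusted p = 0.000528). Il1rn was instead higher in colon, at 2.97, 0.59 and 0.82 against -0.69, -2.28 and -1.70 in Flox and at 1.46, 1.64, 1.98 and 0.99 against -1.31, 0.24, -0.57 and -0.43 in iKO. All colon arrays exceeded all ileum arrays of their genotype, by 8.09-fold (3.02 ± 0.60, adjusted p = 0.00285) and 4.1-fold (2.04 ± 0.52, adjusted p = 0.0081). Without the 3 arrays with high B cell markers the iKO difference was 1.68 and did not pass (adjusted p = 0.0752).

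Il18, a cytokine of gut epithelium, was at 1.51, 0.61 and 0.35 in Flox ileum and at 3.16, 3.22 and 2.84 in Flox colon. The tissues did not overlap, and the rise was 4.76-fold (2.25 ± 0.36, adjusted p = 0.000655). In iKO it was at 1.30, 1.44, 1.54 and 2.20 in ileum and at 2.82, 2.96, 2.56 and 1.74 in colon, where colon array 4 lay within the ileum range. The rise was 0.90 ± 0.31, 1.87-fold (adjusted p = 0.0326), and it was lost when any of aged ileum iKO arrays 1, 2 and 3 (adjusted p = 0.0842, 0.0725 and 0.0645) or colon iKO arrays 1, 2 and 3 (0.0836, 0.0921 and 0.0671) was left out, and without the 3 arrays with high B cell markers (0.0565). Il18bp, the gene of its soluble inhibitor, was lower in colon by -2.49 ± 0.22 and -3.51 ± 0.19 (adjusted p = 1.41e-05 and 1.64e-07), and the receptor gene Il18r1 by -1.38 ± 0.22 and -1.73 ± 0.19. Tslp was 0.80 ± 0.27 higher in Flox colon (adjusted p = 0.037), but it was not well above background on any aged Flox ileum array, and with normexp correction the difference was -0.17.

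Of 4 tested subunits, Relb and Nfkb2 were lower in colon in each genotype, and Nfkb1 was called on its brightest probe only. Rela, at 1.71 to 1.94 in aged Flox ileum and 1.82 to 1.93 in Flox colon, was not called. Relb, of the non-canonical branch, was at 3.51, 4.52 and 4.03 in Flox ileum and at 2.90, 3.02 and 3.08 in Flox colon, 2.02-fold lower (-1.02 ± 0.22, adjusted p = 0.00485), and -0.89 ± 0.19 lower in iKO (adjusted p = 0.00306). Nfkb2, which encodes its partner, was lower by -0.48 ± 0.14 and -0.32 ± 0.12 (adjusted p = 0.0215 and 0.0496); the iKO value was -0.18 (adjusted p = 0.297) without the 3 arrays with high B cell markers and -0.35 (adjusted p = 0.0552) without the 2 with high colon markers. For Nfkb1 the brightest probe gave -0.41 ± 0.12 and -0.67 ± 0.11 (adjusted p = 0.0234 and 0.000379), but the other 3 probes, in order of brightness, gave 0.043, 0.062 and -0.45 in Flox and -0.015, 0.059 and -0.26 in iKO and did not pass, so no direction is given for the gene.

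Of the 5 inhibitors, 2 were lower in Flox colon and 4 in iKO colon, and none was higher. Nfkbib was at 2.46, 2.58 and 2.56 in Flox ileum and at 1.78, 2.20 and 1.68 in Flox colon, a difference of -0.64 ± 0.12 (adjusted p = 0.0022), and it differed by -0.89 ± 0.11 in iKO (adjusted p = 4.99e-05). No colon array reached the ileum range. Nfkbia differed by -0.67 ± 0.19 and -0.81 ± 0.16 (adjusted p = 0.0173 and 0.00175), and in iKO Nfkbiz by -0.96 ± 0.24 (adjusted p = 0.00715) and Nfkbie by -0.72 ± 0.24 (adjusted p = 0.03). Of the TNF signalling genes Tnfaip2 was lower in both (-1.32 ± 0.25 and -1.40 ± 0.22, adjusted p = 0.002 and 0.000302), Traf2 and Birc2 in iKO (-0.30 ± 0.08 and -0.27 ± 0.09, adjusted p = 0.0125 and 0.0296), and the adhesion molecule Icam1 in both (-0.92 ± 0.26 and -1.06 ± 0.23, adjusted p = 0.018 and 0.00263). The second Icam1 probe gave -0.50 in Flox and -0.51 in iKO and did not pass (limma, adjusted p = 0.327 and 0.221). With the mean over probes the Flox call of Icam1 was lost (adjusted p = 0.0971). Without the 3 arrays with high B cell markers, Nfkbie was at -0.27 (adjusted p = 0.34), Birc2 at -0.15 (0.291) and Traf2 at -0.28 (0.0872), none of them called.

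Some of these smaller calls were lost when 1 array was left out. In Flox this held for Nfkbia without aged ileum array 3 or colon array 4 (adjusted p = 0.0668 and 0.056), for Icam1 without ileum array 1 or colon array 1 (0.0643 and 0.054), and for Nfkb2 without ileum array 3 or 4 or colon array 1 or 4 (0.0791, 0.0619, 0.0592 and 0.0534). Nfkb1 lost its call without ileum array 3 or colon array 3 or 4 (0.0908, 0.0801 and 0.0785). Tslp lost its call without ileum array 3 or 4 or any single Flox colon array (0.0714 to 0.126). In iKO it held for Birc2 without ileum array 1 or 4 or colon array 2 or 4 (0.0837, 0.0834, 0.0637 and 0.0836). Nfkbie lost its call without ileum array 1 or 4 or colon array 2, 3 or 4 (0.0859, 0.0845, 0.0884, 0.0592 and 0.0577). Nfkb2 lost its call without aged ileum Flox array 4, ileum iKO array 1, 2 or 4, any single Flox colon array, or iKO colon array 1, 2 or 3 (0.0583 to 0.134).

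Of 74 tested genes in the other pathway lists, 9 were higher and 23 lower in Flox colon, 12.2% and 31.1%, and 9 higher and 31 lower in iKO colon, 12.2% and 41.9%, beside the shares of all genes given above. Of 24 IKK components, adaptors and kinases 1 was higher and 7 lower in each genotype. Ikbkg, the regulatory IKK subunit gene, was the higher one, by 0.79 ± 0.13 in Flox and 0.80 ± 0.11 in iKO (adjusted p = 0.00074 and 0.000135), and Irak2, a kinase of interleukin and Toll-like receptor signalling, was lower by -0.79 ± 0.18 and -0.98 ± 0.15 (adjusted p = 0.00555 and 0.000355). Of 10 further inhibitors and ubiquitin regulators 1 was higher and 5 lower in Flox and 8 were lower in iKO, with Tnfaip8l2 at -3.03 ± 0.23 and -3.37 ± 0.20 (adjusted p = 4.36e-06 and 3.24e-07). Of 17 cytokine receptors 2 were higher and 7 lower in Flox and 3 higher and 10 lower in iKO, with Tnfrsf1a, the main TNF receptor gene, at -0.89 ± 0.12 and -1.23 ± 0.11. Of 13 chemokine receptors 3 were lower in Flox, and 2 were higher and 4 lower in iKO. Of 10 innate sensors 5 were higher and 1 lower in Flox, 50% and 10%, and 3 were higher and 2 lower in iKO, 30% and 20%, the latter near the 24.3% and 19.3% of all genes. Higher in both genotypes were the lipopolysaccharide receptor gene Tlr4 by 1.54 ± 0.27 and 1.92 ± 0.23 and the flagellin receptor gene Tlr5 by 1.38 ± 0.39 and 1.96 ± 0.34 (adjusted p = 0.00128, 5.45e-05, 0.0182 and 0.000669).

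The 3 ileum arrays with high B cell markers, all iKO, also held the highest values of some members. Ltb, a lymphotoxin subunit made by B and T cells, was 4.97 on young iKO array 4 and 3.18 and 3.41 on aged iKO arrays 1 and 4, and lay between 0.77 and 1.99 on the other 12 ileum arrays. Cxcl13, the chemokine that draws B cells into follicles, was 1.73, 0.55 and 0.64 on the same arrays and at most 0.05 on the others. Icam1, Nfkbie and Traf1 also had their 3 highest values on these arrays, making 5 of 32 tested members, 15.6%, against 2.2% of 15577 genes. The mean of 9 B and plasma cell markers was 1.08, -0.09 and -0.09 on them and -2.99 to -1.70 on the others, and Pax5 and Blk were well above background on no other ileum array. Not all 9 were raised: Jchain was at 6.27, 6.40 and 6.59 on these arrays, within the range of 5.13 to 6.97 on the others. The arrays were singled out by those markers after their values were seen, and no test was made.

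Without these 3 arrays the genotype comparisons still called no member. With age 3 members were called in Flox (Ccl20, Cxcl12, Cxcl13) and none in iKO, and between tissues 16 in Flox and 13 in iKO. Without young iKO array 4 alone, 2 members were called with age in Flox (Cxcl12, Cxcl13) and 5 in iKO (Cxcl12, Cxcl13, Icam1, Tnf, Vcam1). The iKO calls of Cxcl12 and Tnf were both lost without young iKO array 2 or aged iKO array 2, 3 or 4, each of which left 0 members called. Without the 2 aged ileum arrays with high colon markers, Tnf was the 1 member called with age in iKO.

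**Figure D4:**
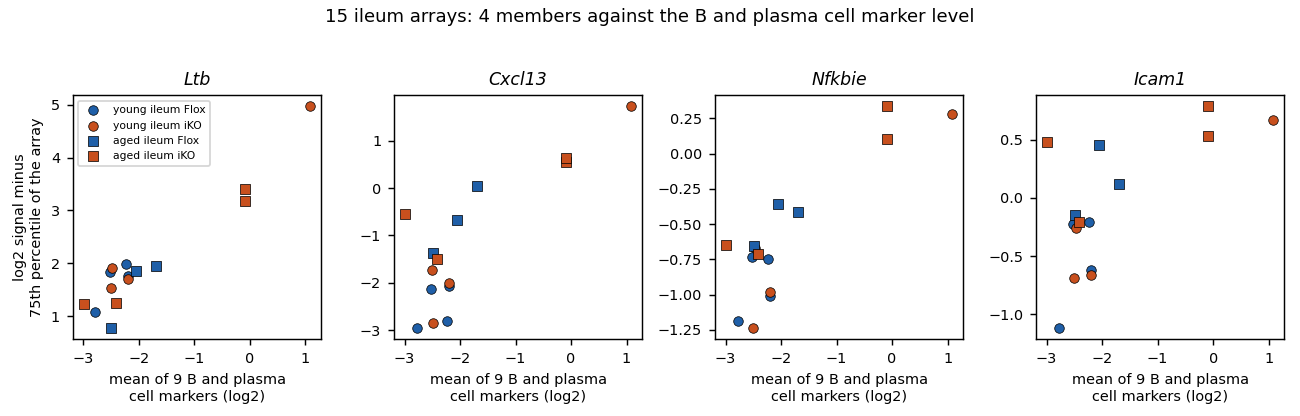
Levels of Ltb, Cxcl13, Nfkbie and Icam1 (log2 signal minus the 75th percentile of the array) against the mean of 9 B and plasma cell markers on the 15 ileum arrays. The 3 arrays at the right, young iKO array 4 and aged iKO arrays 1 and 4, hold the 3 highest values of each of the 4 members.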

How the data were processed

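Total RNA of 22 samples was hybridised to one-colour Agilent arrays of 45018 spots. The deposited values are signal intensities, background-subtracted and detrended within each array with Agilent Feature Extraction 9.5 per the file headers, with no scaling between arrays; the authors' value table equalled them. The deposited flags for signal well above background (0 or 1, unit other) were used as they stand.

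Control and outlier spots were left out, spots of a probe averaged, and log2 intensities centred on each array's 75th percentile. The brightest probe stood for each gene name. Genes that all arrays of some group showed well above background were fitted with limma 3.58.1 (lmFit, eBayes; R 4.3.3), with Benjamini-Hochberg adjustment over all genes and a threshold of 0.05. The fits held 15 ileum, 7 colon and 14 aged arrays; Python 3.11.15 did the rest. The script was tested on simulated data.

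The 44 members and the other lists were chosen with earlier results of these data known. Named were the called members, or the 5 with the smallest p where fewer than 5 were called, and from other lists at most 5 called genes. Alternatives covered scaling, background correction, filter, probe choice, eBayes options, slide, replicate block, the arrays in the fit and leaving out arrays. The number of arrays limits the precision. A result on 1 gene of the IKK, adaptor and kinase list is not reported here.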

Additional observations from a re-analysis of the deposited data

Results flagged for a closer look

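In groups of 4 arrays, a member was listed here where 1 array lay apart from the other 3, its gap to the nearest of them, as a ratio to the group's whole range, above Dixon's 95% critical value for 4 values. This was so in 10 of 133 sets of 4 arrays, and chance alone gives about 1 in 20. No cause was tested.

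In young Flox ileum, Il1rn on array 2 was -1.60 against -3.04 to -2.98 (ratio 0.955), Vcam1 on array 3 was -1.53 against -0.93 to -0.83 (ratio 0.858), and Ccl20 on array 3 was -3.43 against -2.54 to -2.39 (ratio 0.857). In young iKO ileum, Relb on array 1 was 4.45 against 3.92 to 3.96 (ratio 0.928), and Ltb on array 4, the array with the highest B cell markers, was 4.97 against 1.53 to 1.92 (ratio 0.887). In aged iKO ileum, Cxcl16 on array 2, which has high colon markers, was 0.56 against 1.42 to 1.52 (ratio 0.898).

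In aged iKO colon, 4 members had an array apart. Birc3 on array 4 was 0.92 against 1.47 to 1.51 (ratio 0.928), and Cxcl12 on the same array was 0.80 against -0.10 to 0.01 (ratio 0.880). Ccl4 on array 2 was -3.56 against -4.48 to -4.42 (ratio 0.941). Cxcl13 on array 1 was 0.74 against -0.51 to -0.32 (ratio 0.853).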

How the results depend on the processing

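No member was called in the 3 genotype comparisons or the 2 interactions under any alternative run for them (16 to 27 each). With age in Flox, where 1 member was called, 2 were called with the replicate block (Cxcl12, Il1rn) or with only the contrasted groups in the fit (Cxcl12, Cxcl13), and leaving out single arrays gave 1 to 2. With age in iKO, where 2 members were called, 1 was called with quantile scaling, a stricter filter or only the contrasted groups, and 0 with no filter, the mean over probes or slide as a fixed factor; single arrays left out gave 0 to 5. Chosen after seeing the data were fits without the 3 arrays with high B cell markers, which called 3 with age in Flox and 0 in iKO and 16 and 13 between tissues, and without the 2 with high colon markers, which called 1 with age in iKO and 15 and 20 between tissues. Correlations of same-numbered arrays, as deviations from group means, ran from -0.35 to 0.38. With 3 or 4 pairs each, they cannot decide whether replicate numbers pair the arrays. The replicate block called 3 members with age in iKO (Ccl25 added), 13 and 15 between tissues in Flox and iKO, and 0 for genotype and interactions. Leaving out single arrays gave 11 to 16 members between tissues in Flox and 14 to 19 in iKO. The cause of these changes was not tested. Where arrays were left out, the fit also held fewer arrays. Signs turned for Vcam1 with age in Flox (-0.048 as the mean over probes), for Tslp between tissues in Flox (-0.17 with normexp), for Ccl25 between tissues on 1 of its other probes (0.33 in Flox, 0.54 in iKO), and for other probes of Nfkb1: 0.10 and 0.050 for genotype in colon, 0.062 and 0.043 between tissues in Flox, 0.059 in iKO and 0.20 for the interaction with tissue. Over all genes, the calls ranged from 3 to 14 (7 in the reported fit) for genotype in young ileum, from 9 to 46 (26) in aged ileum and from 1 to 48 (22) in colon, from 395 to 1524 (1333) with age in Flox and from 232 to 1843 (1671) in iKO. Members not well above background on an ileum array have no measured level there.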
